A study of Homo sapiens with 24 samples.

Results

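The genes of the centrosome and the centriole were examined in THP-1, a cell line grown from a human acute monocytic leukaemia. A gene was included if its symbol is CEP followed by a number, or if it was 1 of 14 further named genes: PCM1, NIN, NINL, CNTRL, AKAP9, PCNT, ODF2, CDK5RAP2, CNTROB, CROCC, SASS6, OFD1, CENPJ (now also named CPAP) and BBS4. Symbols with a suffix, such as CEP57L1 and CEP170B, were kept. The rule gave 51 genes, 37 of them named CEP, among 18417 genes tested.

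The cells had been transduced with lentivirus and selected with G418, and doxycycline (DOX) induces the FLAG-tagged NOD1 or NLRP4 that the virus carries, while the empty vector carries neither. Total RNA was measured on 24 arrays, 4 in each of 6 groups: the NOD1 line with DOX, the NOD1 line without DOX, the NLRP4 line with DOX, the NLRP4 line without DOX, the empty-vector line with DOX and the empty-vector line without DOX. DOX was given at 1 µg/ml for 6 h, and the groups without DOX received none. Each construct is represented by 1 transduced line, so the introduced gene, the line's own history and the consecutive numbering of its arrays cannot be told apart. The labels do not say that the wells of a group were separate cultures, so p-values measure the spread between wells, which may be technical.

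The centrosome organizes microtubules and is built around a pair of centrioles. Each centriole is copied once per cell cycle from a cartwheel, is capped at its far end, and as it matures gains appendages that anchor microtubules and dock it to the membrane, where it becomes the base of a cilium. Around the centrioles lie a protein matrix that nucleates microtubules and mobile granules, the satellites. In blood cells the centrosome is best known for spindle assembly and for cell polarity.

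Each introduced gene was high in its own line with DOX, and its mean without DOX was above that of the vector line. With DOX, NOD1 averaged 12.75 ± 0.18 on the log2 scale in the NOD1 line, against 8.74 ± 0.19 without DOX (SD, n = 4 each; log2 change 4.02, SE 0.135, limma adjusted p = 7.39e-16; exact permutation p = 0.0286, the smallest that 4 against 4 arrays can give). With DOX, NLRP4 averaged 11.93 ± 0.26 in the NLRP4 line, against 8.09 ± 0.43 without DOX (log2 change 3.84, SE 0.188, limma adjusted p = 3.73e-12). Without DOX, NOD1 was 0.40 higher on the log2 scale in the NOD1 line than in the vector line (limma adjusted p = 0.0299). The exact permutation p was 0.0571, above the smallest possible, and 13% of all genes were called higher in that comparison. NLRP4 was 1.17 higher on the log2 scale in the NLRP4 line than in the vector line (limma adjusted p = 0.0405; exact permutation p = 0.0286). Of the monocytic markers, LYZ ran from 13.31 to 13.94 and CD68 from 11.09 to 12.85 over the arrays. CD14, MPO and ITGAM were dim, with means of 7.82, 7.96 and 8.10 over all arrays. Among markers of other cell types, COL1A1 and KRT18 averaged more, 9.39 and 8.80, so signal alone does not separate the lists. The mean over 11 monocytic markers ran from 10.32 to 10.53 in the NOD1 line, from 9.99 to 10.13 in the NLRP4 line and from 9.85 to 10.10 in the vector line. Without DOX, 9 of these 11 markers were higher and 0 lower in the NOD1 line than in the vector line. Of all genes, 13% were called higher and 11.9% lower there. Of 12 markers of other cell types, EPCAM was the 1 called, and it was lower in the NOD1 line (log2 change -1.89, SE 0.416). The mean over these 12 markers ran from 7.67 to 7.83 in the NOD1 line, from 7.84 to 8.04 in the NLRP4 line and from 7.85 to 8.01 in the vector line. The part of any of these markers in the results below was not tested. Deposited array medians ran from 8.06 to 8.85, and all signals below were quantile normalized between arrays.

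The centrosome genes were broadly lower in the NOD1 line. Without DOX, 29 of the 51 genes were lower and 4 were higher in the NOD1 line than in the vector line, at an adjusted p under 0.05 over all genes. Over all 18417 genes, 11.9% were called lower and 13% higher in that comparison. With arrays centred on their medians those shares were 13.2% and 7.59%, and in the values as deposited 8.92% and 11.9%. The median log2 change was -0.54 over the 51 genes and 0.03 over all genes. Of the 51 genes, 12 were called and at least 2-fold lower, against 1.81% of all genes, and 0 were at least 2-fold higher, against 0.396%. The 4 arrays of the NOD1 line lay below all 4 of the vector line for 24 of the 51 genes, against 9.84% of all genes, and above them for 3, against 11.1%. Whether such a difference reflects less RNA per cell or fewer cells of some state cannot be told apart in bulk RNA. The shares over all genes cover every signal level, and the 51 genes were not matched to them by signal. Most genes called lower were bright, such as CEP350 and SASS6 at signal percentiles 95.2 and 89.6, but CEP112 was at 23.4. Most uncalled genes were dimmer, such as CEP68 and CEP131 at 37.4 and 51.0, but CEP20 was at 95.2. The part of signal level in the calls was not tested.

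**Figure D1:**
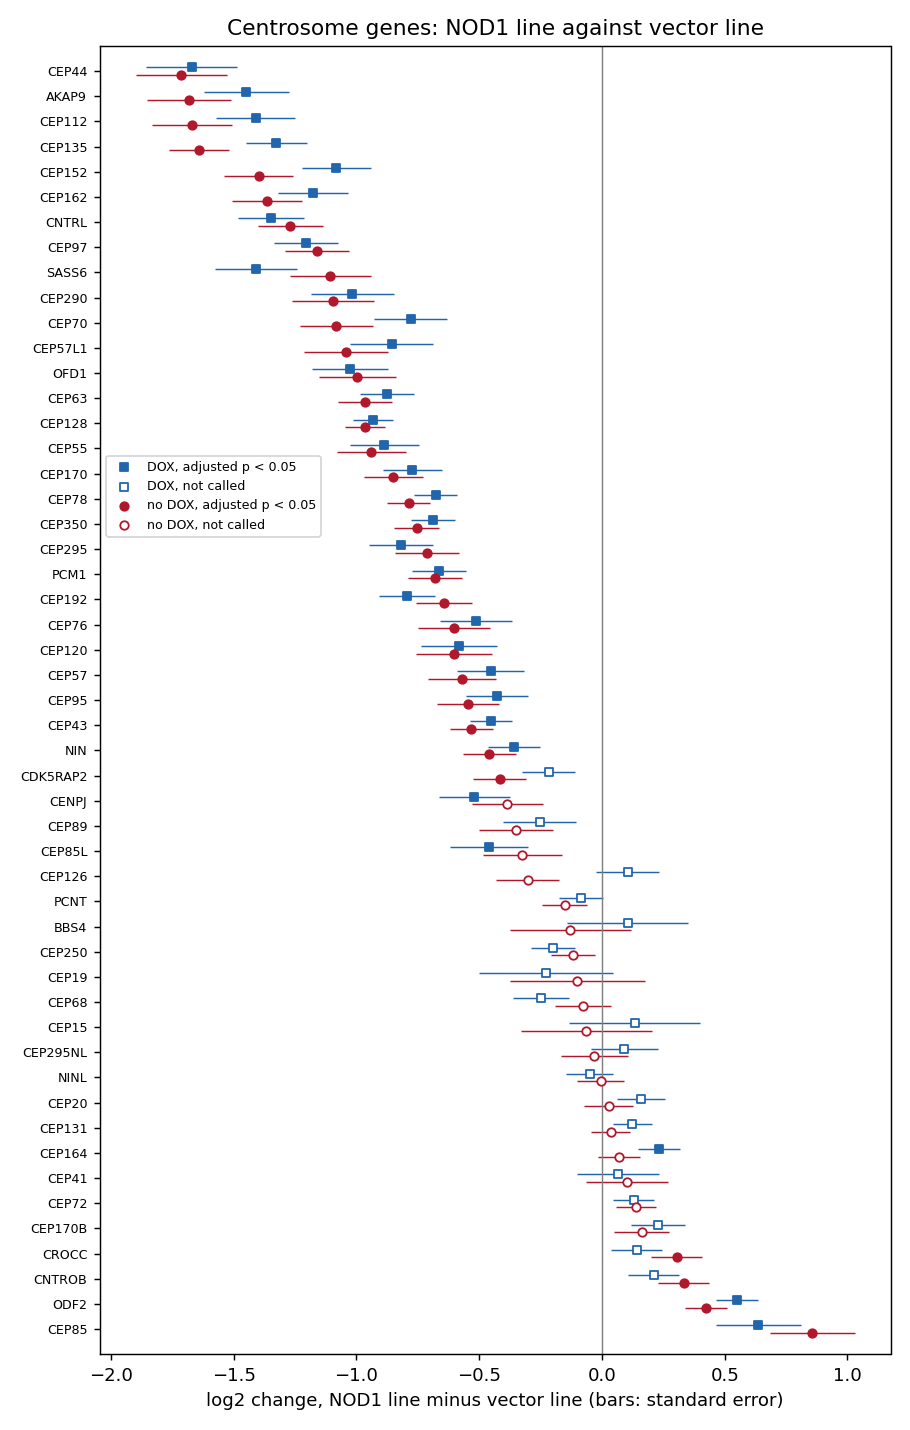
Log2 change of each of the 51 centrosome genes in the NOD1 line minus the vector line, with DOX (blue squares) and without DOX (red circles); filled symbols passed an adjusted p of 0.05 and bars are standard errors. The points run from -1.71 for CEP44 to 0.86 for CEP85 without DOX, and the symbols of the 2 DOX states lie close together for most genes.

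The promoters shown are those of the 3 genes with the largest called changes in the NOD1 line against the vector line without DOX. Whether these genes share a regulator was not tested. They come from RefSeq (GRCh38.p14) and cover 250 bases before to 50 bases after the start of the gene, 5′ to 3′. CEP44 lies at chr4:174283661-174283960 on the plus strand, AKAP9 at chr7:91940612-91940911 on the plus strand and CEP112 at chr17:65826402-65826701 on the minus strand. Capitals mark matches, on either strand, to 4 kinds of motif: the cell cycle homology region TTTGAA, the CCAAT box CCAAT, the E2F letters TTCCCGC or TTGGCGC, and the NRF1 letters GCATGCG.
CEP44: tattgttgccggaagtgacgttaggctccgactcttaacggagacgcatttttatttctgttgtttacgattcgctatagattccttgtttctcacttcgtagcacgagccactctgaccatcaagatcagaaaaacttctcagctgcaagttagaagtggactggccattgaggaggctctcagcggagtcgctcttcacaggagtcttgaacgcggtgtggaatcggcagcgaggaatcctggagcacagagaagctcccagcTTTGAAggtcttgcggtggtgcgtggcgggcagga
AKAP9: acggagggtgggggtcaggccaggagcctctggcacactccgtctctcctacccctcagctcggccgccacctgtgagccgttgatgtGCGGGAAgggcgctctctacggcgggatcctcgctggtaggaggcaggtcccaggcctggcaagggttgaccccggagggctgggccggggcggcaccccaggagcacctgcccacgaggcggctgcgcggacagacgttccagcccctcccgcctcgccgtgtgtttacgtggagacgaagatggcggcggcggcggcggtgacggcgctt
CEP112: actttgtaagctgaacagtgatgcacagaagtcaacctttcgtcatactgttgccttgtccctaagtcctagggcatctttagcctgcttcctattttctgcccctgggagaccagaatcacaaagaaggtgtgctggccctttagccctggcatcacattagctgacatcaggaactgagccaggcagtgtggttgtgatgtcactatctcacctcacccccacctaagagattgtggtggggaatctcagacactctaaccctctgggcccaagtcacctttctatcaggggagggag
CEP44 held the letters of the cell cycle homology region at base 266 of its window. AKAP9 held those of an E2F site on the other strand at base 89, and CEP112 held none of the 4. None of the motifs searched overlapped another in these windows. Of the 51 genes, 45 had a promoter in the table, as had 14239 of the genes tested. The letters TTTGAA stood in 13 of the 45 promoters (28.9%), in 10 of the 27 promoters of genes called lower (37%) and in 11.9% of the 14239. E2F letters stood in 13 of the 45 (28.9%), in 9 of the 27 (33.3%) and in 12.6% of the 14239. The CCAAT box stood in 20 of the 45 (44.4%), in 10 of the 27 (37%) and in 36.3% of the 14239, and the NRF1 letters in 1 of the 45 (2.22%), in 1 of the 27 (3.7%) and in 5.11%. Of the 14 promoters of centrosome genes not called, 3 held TTTGAA (21.4%), 3 held E2F letters (21.4%) and 8 held the CCAAT box (57.1%). Of the 4 promoters of centrosome genes called higher, 0 held TTTGAA, 1 held E2F letters and 2 held the CCAAT box. Of the 1830 promoters of all genes called lower, 16% held TTTGAA, 16.2% E2F letters, 36.9% the CCAAT box and 6.99% the NRF1 letters. Whether any of these motifs goes with the lower calls was not tested. A match is a description of letters, not of a site in use.

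CEP44, a centriole protein that newly made centrioles need to become centrosomes, showed the largest change. Its log2 signal was 7.86, 8.71, 8.91 and 8.96 in the NOD1 line without DOX, against 10.00, 10.42, 10.37 and 10.50 in the vector line without DOX. All 4 NOD1-line arrays lay below all 4 vector-line arrays, and the gene was 3.28-fold lower (log2 change -1.71, SE 0.185, limma adjusted p = 3.28e-07). The NLRP4 line stood with the vector line, at 10.17 to 10.44 without DOX. Over the 6 group means the genes whose pattern was most like that of CEP44 were CEP350 (Pearson r 0.994), CEP112 (0.992) and CEP295 (0.991), with 6 points that share 3 lines.

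AKAP9, a large scaffold that holds kinases and microtubule nucleation factors at the centrosome and the Golgi, stood at 9.38, 8.77, 9.06 and 8.93 in the NOD1 line without DOX, against 10.76, 10.67, 10.63 and 10.81 in the vector line. The groups did not overlap, and the gene was 3.21-fold lower (-1.68, SE 0.172, limma adjusted p = 1.53e-07). CEP135, a cartwheel-bound protein of centriole assembly whose loss causes microcephaly, stood at 9.43, 9.35, 9.94 and 9.36 in the NOD1 line, against 11.14, 11.05, 11.03 and 11.43 in the vector line. That was 3.12-fold lower with the lowest p of the 51 genes (-1.64, SE 0.124, limma adjusted p = 1.76e-09). CEP152, which brings the kinase PLK4 to the mother centriole, stood at 10.10, 9.23, 10.29 and 9.67 in the NOD1 line, against 11.12, 11.23, 11.20 and 11.32 in the vector line. It was 2.64-fold lower (-1.40, SE 0.142, limma adjusted p = 1.33e-07), and the NOD1-line arrays were spread more widely (SD 0.47) than those of the vector line (SD 0.08). The lowest array was NOD1_noDOX replicate 2, whose deposited median was 8.3. That array was also lowest of its group for SASS6 (9.92), PCM1 (12.57) and CEP57 (10.67), though not for CEP44 or CEP112. It was highest for CEP85, ODF2 and CROCC. The call for CEP152 was kept when any 1 array was left out.

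CEP112, a coiled-coil protein of the centrosome, stood at 6.72, 6.73, 6.61 and 6.53 in the NOD1 line without DOX, against 8.16, 8.01, 8.38 and 8.72 in the vector line. It lay among the lowest 25% of genes by signal and no background level was measured, so its fold is given as at least 3.18-fold lower (-1.67, SE 0.162, limma adjusted p = 7.52e-08). CEP162, a protein of the centriole's far end that promotes assembly of the ciliary gate, stood at 7.97, 7.94, 8.09 and 8.30 in the NOD1 line, against 9.07, 9.51, 9.46 and 9.72 in the vector line, 2.58-fold lower (-1.37, SE 0.143, limma adjusted p = 1.92e-07). In both genes every NOD1-line array lay below every vector-line array.

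**Figure D2:**
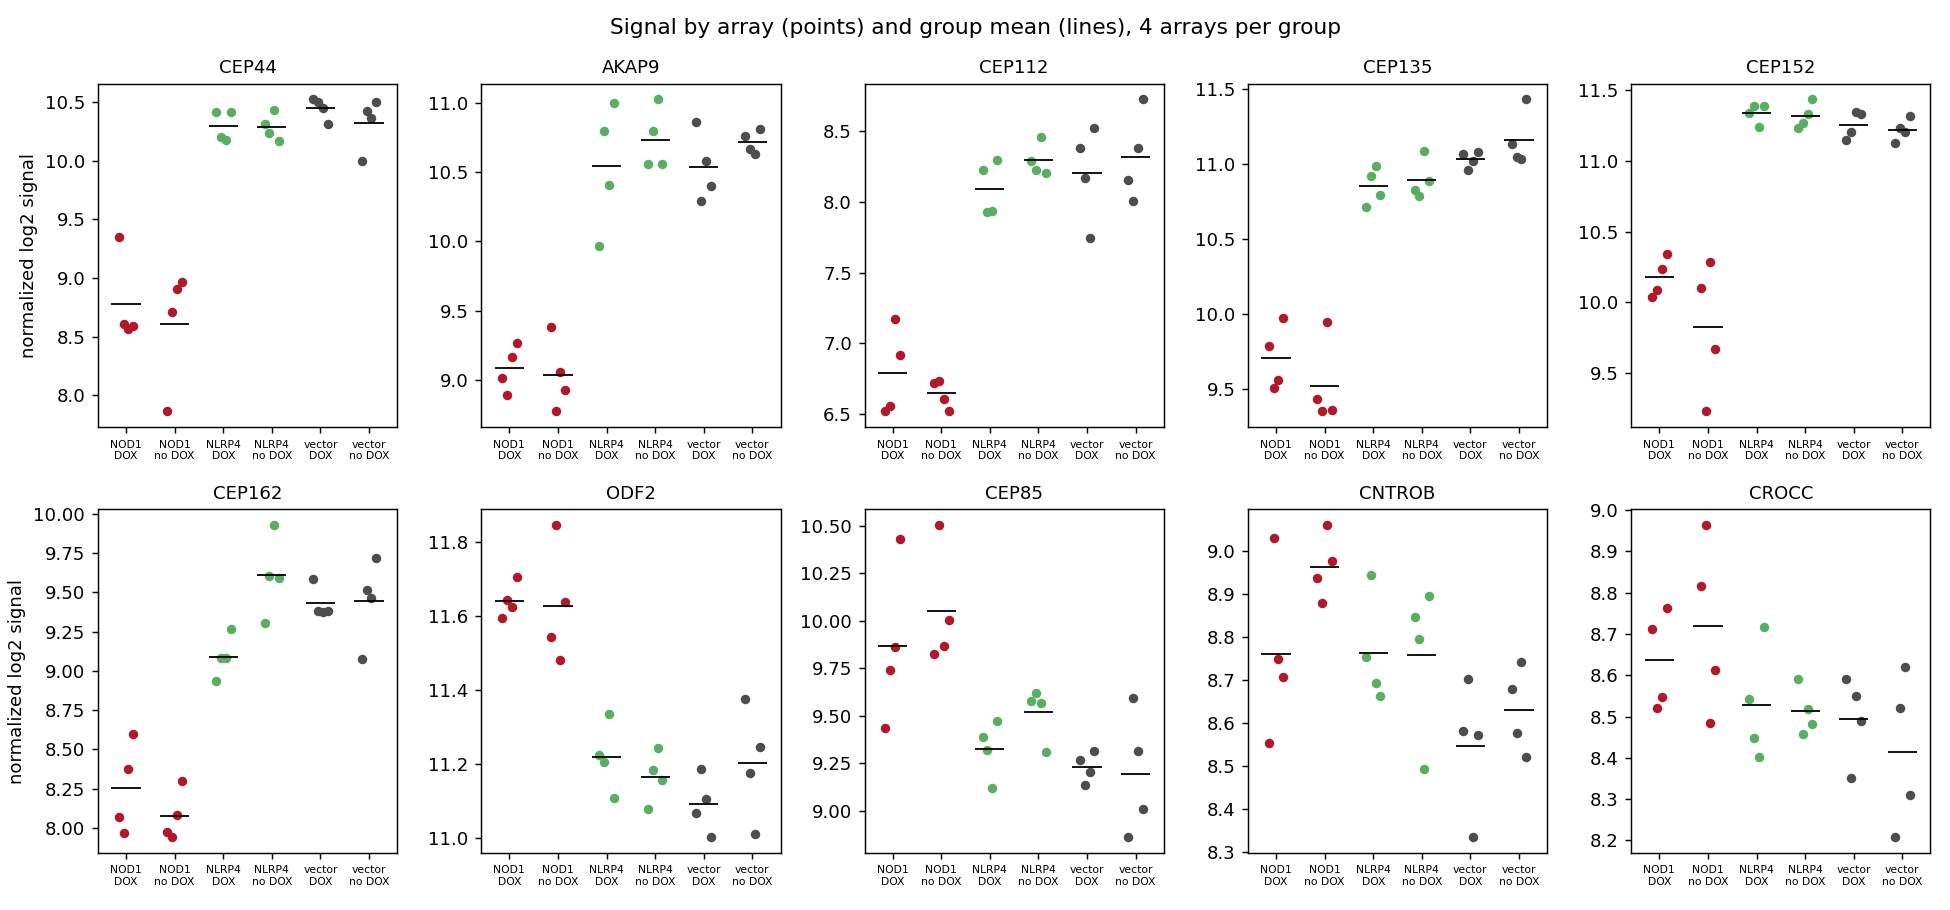
Normalized log2 signal of 10 centrosome genes on each array (points) with the mean of each group of 4 (lines), for the NOD1, NLRP4 and vector lines with and without DOX. CEP44, AKAP9, CEP112, CEP135, CEP152 and CEP162 lie lower on all 8 NOD1-line arrays than on the other 16, and ODF2 lies higher; CEP85, CNTROB and CROCC overlap.

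By role, genes of the centriole core and its duplication made up 13 of the 29 lower calls. The 16 such genes had a median log2 change of -0.75 in the NOD1 line against the vector line without DOX. Of them, 13 were lower and 2 higher, against 11.9% and 13% of all genes. Besides CEP44, CEP135 and CEP152, these were the capping protein gene CEP97 (-1.16, SE 0.130), the cartwheel gene SASS6 (-1.11, SE 0.165) and CEP70 (-1.08, SE 0.148), whose product binds gamma-tubulin. CEP63, the partner of CEP152, changed by -0.97 (SE 0.109), CEP78 by -0.79 (SE 0.087), CEP295, needed for centriole conversion, by -0.71 (SE 0.130) and the matrix recruiter CEP192 by -0.64 (SE 0.115). CEP76, which restrains reduplication, changed by -0.60 (SE 0.147), the centriole elongation gene CEP120 by -0.60 (SE 0.154) and CEP57 by -0.57 (SE 0.138). CENPJ, which sets centriole length, did not pass without DOX (-0.39, SE 0.145, adjusted p = 0.0543). CEP120 and CEP57 were not called in fits restricted to these 2 groups (adjusted p = 0.0589 and 0.0517) or without the 4 dimmest arrays (-0.41 and -0.35, adjusted p = 0.0603 and 0.0518).

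Appendage genes were divided. Of 10 genes, with a median of -0.50, 6 were lower and 1 higher, against 11.9% and 13% of all genes. The lower ones were CNTRL, the gene of centriolin (-1.27, SE 0.134), the subdistal appendage genes CEP128 (-0.96, SE 0.082) and CEP170 (-0.85, SE 0.120), CEP350 (-0.75, SE 0.091), its partner CEP43 (-0.53, SE 0.087) and the microtubule anchor NIN (-0.46, SE 0.106). NIN was not called in a fit of these 2 groups alone (adjusted p = 0.0550). CEP170 had a second probe set, which stood at -0.996 (SE 0.157), and it has a near-identical pseudogene copy whose signal may be mixed in. The distal appendage genes CEP89 (-0.35, SE 0.149) and CEP164 (0.07, SE 0.085) and CEP170B (0.16, SE 0.111) did not pass.

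Among the 4 matrix genes, AKAP9 and the gamma-tubulin activator CDK5RAP2 (-0.42, SE 0.109) were lower, while PCNT, the gene of the main matrix scaffold pericentrin (-0.15, SE 0.090), and NINL (-0.01, SE 0.098) did not pass. CDK5RAP2 likewise lost its call in the fit of 2 groups alone (adjusted p = 0.0784). Of 8 satellite genes, 3 were lower: the ciliopathy genes CEP290 (-1.10, SE 0.169) and OFD1 (1.99-fold lower, SE 0.156 on the log2 scale), and PCM1, which encodes the satellite scaffold (-0.68, SE 0.110). The other satellite genes, CEP20, CEP72, CEP126, CEP131 and BBS4, lay between -0.30 and 0.14 without a call. CEP55, which brings the abscission machinery to the midbody at the end of mitosis, was lower (-0.94, SE 0.141). Of 4 genes placed in the cilium group, CEP112 and CEP162 were lower, and CEP19 (-0.10, SE 0.274) and CEP41 (0.10, SE 0.167) did not pass. A ciliary role of CEP112 was not examined here. Of the linker genes, which tie the 2 centrioles together, 0 of 3 were lower, with CEP250 at -0.12 (SE 0.090) and CEP68 at -0.08 (SE 0.115). Of the 5 genes without a role group, CEP57L1, a relative of CEP57 (-1.04, SE 0.170), and CEP95 (-0.54, SE 0.126) were lower, and CEP15, CEP85L and CEP295NL lay between -0.32 and -0.03 without a call. Over all genes 11.9% were lower and 13% higher in this comparison with the vector line. The role groups hold few genes each, and differences between them were not tested. Against the NLRP4 line without DOX 1 of the 3 linker genes, CEP68, was called lower (-0.33, limma adjusted p = 0.0338).

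The 4 genes that went the other way were CEP85, ODF2, CNTROB and CROCC. CEP85, which binds STIL and promotes the activity of PLK4, stood at 9.82, 10.50, 9.87 and 10.00 in the NOD1 line without DOX, against 8.86, 9.59, 9.31 and 9.01 in the vector line, 1.81-fold higher (0.86, SE 0.173, limma adjusted p = 0.000574). ODF2, the gene of the mother centriole protein cenexin, stood at 11.54, 11.85, 11.48 and 11.64 in the NOD1 line, against 11.38, 11.18, 11.01 and 11.25 in the vector line, 1.34-fold higher (0.42, SE 0.084, limma adjusted p = 0.000494). The arrays of the 2 lines did not overlap for either gene, but median centring of the arrays took ODF2 below the threshold (0.29, adjusted p = 0.137).

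CNTROB, whose product marks the daughter centriole, stood at 8.94, 8.88, 9.06 and 8.98 in the NOD1 line without DOX, against 8.68, 8.58, 8.74 and 8.52 in the vector line (0.33, SE 0.104, limma adjusted p = 0.0196). CROCC, the gene of the linker and rootlet protein rootletin, stood at 8.82, 8.96, 8.48 and 8.61 in the NOD1 line, against 8.21, 8.52, 8.62 and 8.31 in the vector line (0.31, SE 0.104, limma adjusted p = 0.0335), and its groups overlapped. The call for CNTROB was lost without vector_noDOX replicate 4 or NOD1_noDOX replicate 3 (adjusted p up to 0.0661) and without the 4 dimmest arrays (0.34, adjusted p = 0.0667). The call for CROCC was lost when vector_noDOX replicate 1 or 4, or replicate 1 or 2 of NOD1_noDOX, was left out (adjusted p up to 0.15), with centred arrays (0.29, adjusted p = 0.0597), in the fit of 2 groups alone (0.31, adjusted p = 0.147) and without the 4 dimmest arrays (0.26, adjusted p = 0.127). CROCC has close pseudogene copies whose signal may be mixed in.

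The comparison of the same lines with DOX used other arrays and gave a similar picture. Of the 51 genes, 30 were lower and 3 higher in the NOD1 line with DOX, against 12.2% and 13.6% of all genes. The arrays of the NOD1 line lay below those of the vector line for 32 genes and above them for 3, against 13.2% and 15.5% of all genes. The median was -0.46, against 0.02 over all genes. In all, 28 genes were lower in both DOX states, against 9.57% of all genes, 2 (ODF2 and CEP85) were higher in both, against 9.5%, and 0 were called in opposite directions. The sign of the change was the same in both states for 47 of 51 genes. CEP44 was again lowest (-1.67, SE 0.185), and SASS6 stood at -1.41 (SE 0.165). CENPJ (-0.52, SE 0.145, adjusted p = 0.00899) and CEP85L (-0.46, SE 0.160, adjusted p = 0.0351) were called lower and CEP164 higher (0.23, SE 0.085, adjusted p = 0.0463) with DOX but not without. CDK5RAP2 (-0.22, SE 0.109), CNTROB (0.21, SE 0.104) and CROCC (0.14, SE 0.104) were called without DOX only. The 3 differences between DOX effects called none of the 51 genes, so a difference between the states was not shown.

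The arrays with DOX showed the same genes. CEP44 stood at 9.35, 8.61, 8.57 and 8.59 in the NOD1 line with DOX, against 10.53, 10.50, 10.45 and 10.31 in the vector line with DOX (-1.67, SE 0.185, limma adjusted p = 4.38e-07). AKAP9 stood at 9.01, 8.89, 9.16 and 9.27 in the NOD1 line with DOX, against 10.86, 10.29, 10.58 and 10.40 in the vector line with DOX (-1.45, SE 0.172, limma adjusted p = 1.07e-06). CEP135 stood at 9.78, 9.51, 9.56 and 9.97 in the NOD1 line with DOX, against 11.07, 10.96, 11.02 and 11.08 in the vector line with DOX (-1.33, SE 0.124, limma adjusted p = 4.16e-08). In these 3 genes every NOD1-line array lay below every vector-line array. CEP152 stood at 10.04, 10.09, 10.23 and 10.34 in the NOD1 line with DOX, against 11.15, 11.20, 11.35 and 11.33 in the vector line with DOX (-1.08, SE 0.142, limma adjusted p = 3.64e-06). CEP112 stood at 6.52, 6.56, 7.17 and 6.92 in the NOD1 line with DOX, against 8.38, 8.17, 7.74 and 8.52 in the vector line with DOX (-1.41, SE 0.162, limma adjusted p = 6.87e-07). CEP162 stood at 8.07, 7.97, 8.38 and 8.60 in the NOD1 line with DOX, against 9.59, 9.38, 9.37 and 9.38 in the vector line with DOX (-1.18, SE 0.143, limma adjusted p = 1.4e-06). The arrays of the 2 lines were again apart. ODF2 stood at 11.59, 11.64, 11.62 and 11.71 in the NOD1 line with DOX, against at most 11.19 on the 4 arrays of the vector line with DOX (0.55, SE 0.084, limma adjusted p = 2.57e-05). CEP85 stood at 9.44, 9.74, 9.86 and 10.43 in the NOD1 line with DOX, against 9.27, 9.13, 9.20 and 9.32 in the vector line with DOX (0.64, SE 0.173, limma adjusted p = 0.00722). Both were higher on all 4 NOD1-line arrays. CNTROB stood at 8.55, 9.03, 8.75 and 8.71 in the NOD1 line with DOX, against 8.58, 8.70, 8.34 and 8.57 in the vector line with DOX (0.21, SE 0.104, limma adjusted p = 0.151). CROCC stood at 8.71, 8.52, 8.55 and 8.76 in the NOD1 line with DOX, against 8.59, 8.35, 8.55 and 8.49 in the vector line with DOX (0.14, SE 0.104, limma adjusted p = 0.372). For CNTROB and CROCC the groups overlapped.

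Some calls with DOX rested on single arrays. CEP57 was not called without vector_DOX replicate 1 (-0.41, adjusted p = 0.0526), CEP76 without NOD1_DOX replicate 4 (-0.40, adjusted p = 0.0565) and CEP95 without NOD1_DOX replicate 3 (-0.33, adjusted p = 0.0676). CEP85L was lost in 5 of 8 such fits: without vector_DOX replicate 1 or 4 or NOD1_DOX replicate 1, 2 or 3 (adjusted p up to 0.129). CEP164 was also lost in 5: without vector_DOX replicate 1, 2 or 4 or NOD1_DOX replicate 1 or 4 (adjusted p up to 0.158). In the values as deposited CEP164 stood at 0.24 (adjusted p = 0.263), in the fit of 2 groups alone at 0.23 (adjusted p = 0.0610) and without the 4 dimmest arrays at 0.19 (adjusted p = 0.155). With centred arrays CEP57 (-0.47, adjusted p = 0.0789) and CEP95 (-0.43, adjusted p = 0.0681) were not called, and CEP76 was not called without the 4 dimmest arrays (-0.40, adjusted p = 0.0721).

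Set against the NLRP4 line, which shares the NOD1-line arrays with the comparisons above, the NOD1 line showed the same genes low. Without DOX, 31 of the 51 genes were lower and 2 higher than in the NLRP4 line, against 12.8% and 14.1% of all genes. With DOX, 28 were lower and 2 higher, against 12% and 13.4% of all genes. In all 4 comparisons of the NOD1 line with another line, 27 genes were lower, against 8.06% of all genes, and 2, ODF2 and CEP85, were higher, against 7.48%. Against the NLRP4 line without DOX neither ODF2 (0.24, adjusted p = 0.211) nor CEP85 (0.50, adjusted p = 0.0801) was called after median centring. CEP85 also lost that call when NLRP4_noDOX replicate 4, or replicate 2 of NOD1_noDOX, was left out (adjusted p up to 0.123). Against the NLRP4 line with DOX, CEP85 was not called when the array median was a covariate (0.20, adjusted p = 0.313), nor when NLRP4_DOX replicate 3, or replicate 4 of NOD1_DOX, was left out (adjusted p up to 0.123). CNTROB and CROCC did not pass against the NLRP4 line without DOX (0.21 for both, adjusted p = 0.160 and 0.158) or with DOX (-0.0041 and 0.11, adjusted p = 0.984 and 0.506). Over its 8 arrays the NLRP4 line held AKAP9 at 9.97 to 11.02, CEP135 at 10.71 to 11.09 and CEP152 at 11.23 to 11.44. CEP112 ran from 7.92 to 8.46 and CEP162 from 8.93 to 9.93 on those arrays. In all 5 genes the lowest of these values lay above the highest of the 8 NOD1-line arrays. ODF2 ran from 11.08 to 11.34 in the NLRP4 line, below the 8 NOD1-line arrays, and CEP85 from 9.12 to 9.62, which overlapped them.

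Over all arrays the separation was complete for many genes. For 20 of the 51 genes all 8 NOD1-line arrays lay below the other 16 arrays, which held for 5.33% of all genes. These were CEP43, CEP44, CEP57L1, CEP63, CEP70, CEP78, CEP97, CEP112, CEP128, CEP135, CEP152, CEP162, CEP170, CEP290, CEP350, AKAP9, CNTRL, OFD1, PCM1 and SASS6. For 1 gene, ODF2, all 8 arrays lay above the other 16, against 4.59% of all genes.

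No centrosome gene was called between the NLRP4 line and the vector line. By limma 0 of 51 were called without DOX and 0 with DOX, against 0.0163% and 0.038% of all genes. At an unadjusted p under 0.05 there were 2 and 3 of the 51 genes, against 4.96% and 6.11% of all genes. The changes ran from -0.27 (CEP135) to 0.33 (CEP85) without DOX, with a median of 0.01, and from -0.34 (CEP162) to 0.25 (CEP15) with DOX, with a median of -0.02. The lowest limma adjusted p was 0.992 without DOX and 0.692 with DOX.

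**Figure D3:**
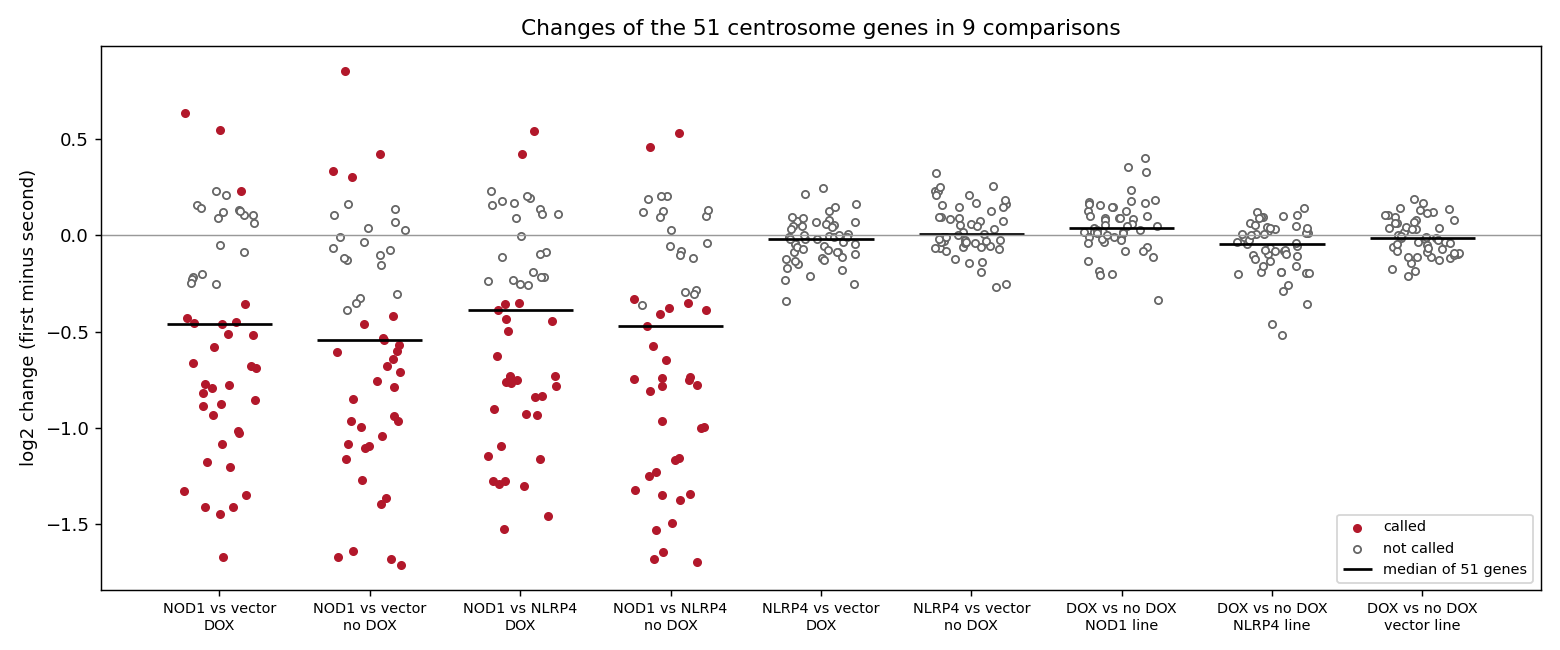
Log2 change of the 51 centrosome genes in 9 comparisons, each point a gene, filled where called at an adjusted p under 0.05, with the median as a line. Calls appear in the 4 comparisons of the NOD1 line with another line, where the median lies between -0.54 and -0.39, and in none of the other 5, where it lies between -0.04 and 0.04.

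Induction itself left the centrosome genes without a call. In the NOD1 line 6 h of DOX gave 0 of 51 genes by limma, against 0.0109% of all genes, with 2 at an unadjusted p under 0.05 (5.77% of all genes) and a median of 0.04. CEP70 had the lowest p: it stood at 10.37, 10.31, 10.34 and 10.38 in the NOD1 line with DOX, against 9.89, 9.43, 10.62 and 9.86 without DOX (0.40, SE 0.148, adjusted p = 0.747). The arrays without DOX enclosed those with DOX. Without NOD1_noDOX replicate 3, the highest, CEP70 was called (0.62, adjusted p = 0.0243).

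In the NLRP4 line DOX gave 0 of 51 calls by limma, against 0.0163% of all genes, with 2 at an unadjusted p under 0.05 (8.05% of all genes) and a median of -0.04. CEP162 had the lowest p, at 8.93, 9.08, 9.08 and 9.27 with DOX, against 9.30, 9.60, 9.93 and 9.59 without DOX (-0.52, SE 0.143, adjusted p = 0.345). Its 4 arrays with DOX lay below the 4 without. The DOX effect on CEP162 was 0.69 higher in the NOD1 line than in the NLRP4 line (SE 0.202, adjusted p = 0.433) and 0.50 lower in the NLRP4 line than in the vector line (log2 difference -0.50, SE 0.202, adjusted p = 0.939). In the vector line DOX gave 0 of 51 calls, against 0% of all genes, and 0 at an unadjusted p under 0.05 (3.38% of all genes). The changes there ran from -0.21 to 0.19, with a median of -0.02. CEP68, a linker protein gene, had the lowest p, at 8.37, 8.51, 8.46 and 8.46 in the vector line with DOX, against 8.29, 7.87, 8.48 and 8.39 without DOX (0.19, SE 0.115, adjusted p = 0.999).

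The 3 differences between DOX effects likewise gave 0 of 51 calls each by limma. Over all genes 0.00543% were called between the NOD1 and vector lines, 0.00543% between the NLRP4 and vector lines and 0.0109% between the NOD1 and NLRP4 lines. At an unadjusted p under 0.05 there were 1, 1 and 3 of the 51 genes in that order, against 4.05%, 4.92% and 8.01% of all genes. Between the NOD1 and vector lines the lowest p belonged to CEP126, a microtubule-binding protein gene (0.41, SE 0.183, adjusted p = 1.00). CEP126 was among the lowest 25% of genes by signal, at 5.99, 6.13, 6.04 and 6.28 in the NOD1 line with DOX, against 5.77, 5.66, 6.17 and 5.92 without DOX. In the vector line it stood at 5.99, 6.05, 6.14 and 5.86 with DOX, against 6.46, 6.30, 6.10 and 5.87 without DOX.

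Other genes of the same structures were examined from lists. Of 40 further centriole and centrosome genes, 17 were lower and 3 higher in the NOD1 line than in the vector line without DOX. The shares over all genes were 11.9% and 13%, and the median of the 40 was -0.25. The largest changes were in ANKRD26, a distal appendage gene (-2.12, SE 0.131), CCDC88A (-2.01, SE 0.151), the spindle pole gene ASPM (-1.72, SE 0.139) and the satellite gene CCDC14 (-1.29, SE 0.123). PLK4, the kinase that starts centriole duplication, was lower (-0.63, SE 0.148), as was CCP110, the partner of CEP97 (-0.79, SE 0.133). SSNA1 (0.62, SE 0.151), HYLS1 (0.42, SE 0.119) and TCHP (0.34, SE 0.106) were higher. These last 5 genes were chosen after their values were seen. With DOX 18 of the 40 were lower and 2 higher, against 12.2% and 13.6% of all genes.

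Of 17 gamma-tubulin ring and augmin genes, 4 (23.5%) were lower and 3 (17.6%) higher without DOX, against 11.9% and 13% of all genes. Their median was 0.05. HAUS6 (-0.96, SE 0.124) and HAUS3 (-0.90, SE 0.15), subunits of augmin, which branches spindle microtubules, were lower, as were TUBGCP4, a gamma-tubulin ring gene, and NEDD1, which brings the ring to the spindle (-0.68 and -0.66). TUBG1, the gene of gamma-tubulin itself, was higher (0.61, SE 0.114) and was chosen after its value was seen. With DOX 3 of the 17 were lower and 4 higher, against 12.2% and 13.6% of all genes.

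The cell cycle lists moved in different ways. Of 20 G2/M genes 9 were lower and 3 higher in the NOD1 line without DOX, against 11.9% and 13% of all genes. Their median was -0.14. CENPF (-1.45, SE 0.118), CENPE (-1.37, SE 0.187) and the spindle motor gene KIF11 (-1.21, SE 0.115) were lower, while CDC20 (0.94, SE 0.096) was higher. Of 20 S phase genes 6 were higher, among them CCNE1 (0.76, SE 0.128), and 0 lower, against 13% and 11.9% of all genes. Their median was 0.18. Set against the NLRP4 line without DOX, 10 of the G2/M genes were lower and 7 higher, against 12.8% and 14.1% of all genes. With DOX 9 were lower and 6 higher there, against 12% and 13.4% of all genes. The G2/M medians against the NLRP4 line were -0.06 without DOX and 0.04 with DOX. The mean over the G2/M list ran from 11.89 to 12.03 on the arrays of the NOD1 line and from 12.16 to 12.22 on those of the vector line, and in the NLRP4 line from 12.005 to 12.088 with DOX and from 12.03 to 12.11 without DOX. With DOX the 2 lines overlapped, the NOD1 line running from 11.97 to 12.03. Without DOX they did not, the NOD1 line running from 11.89 to 11.99, below every NLRP4-line array. Across DOX states, the lowest NLRP4-line mean without DOX, 12.0335, lay just below the highest NOD1-line mean with DOX, 12.0344. Over the S phase list it ran from 11.23 to 11.47 in the NOD1 line, from 11.05 to 11.19 in the NLRP4 line and from 11.02 to 11.19 in the vector line. Their part in the result for the centrosome genes was not tested.

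**Figure D4:**
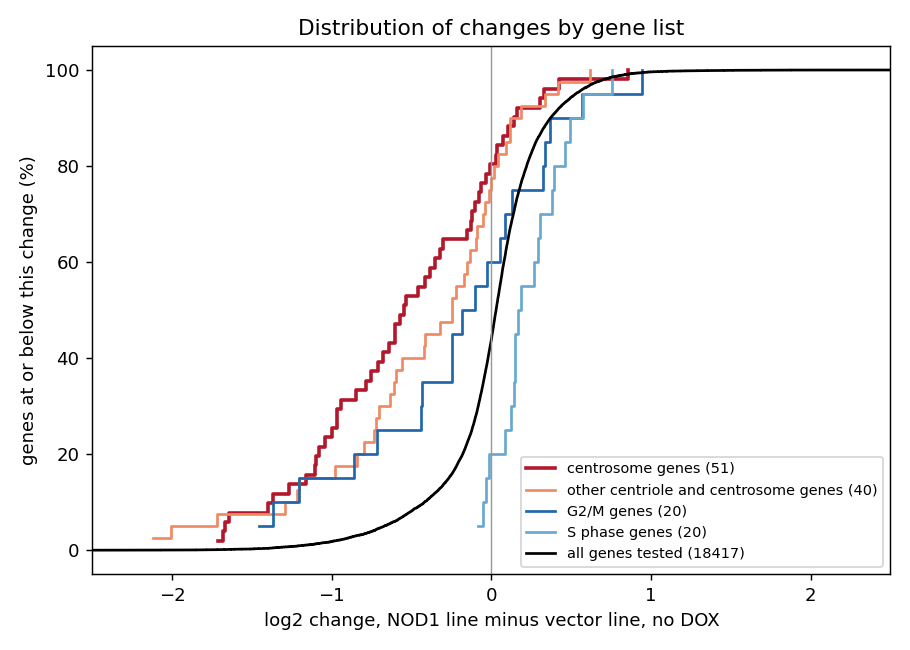
Cumulative share of genes (%) at or below each log2 change in the NOD1 line minus the vector line without DOX, for the 51 centrosome genes, 40 other centriole and centrosome genes, 20 G2/M genes, 20 S phase genes and all 18417 genes tested. The curve of the centrosome genes lies left of that of all genes over most of its range, with medians of -0.54 and 0.03, and the S phase curve crosses 50% at 0.18.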

How the data were processed

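The deposited log2 values, 1 per probe set and array, were used. Per the submitters' processing notes RMA and oligo were applied; the sources used here give no version, order of steps or genome build. The array held 33297 probe sets; the platform annotation named 1 gene for 19460, several genes for 1754, and left 12083 unnamed here. The symbols were then updated by Entrez ID with RefSeq (GRCh38.p14; 19429 matched), and the probe set with the highest mean stood for its gene, which left 18417 genes. Since the deposited medians differed between arrays, values were quantile normalized. The normalization can compress or shift a change that affects most genes, so changes are relative to the normalized distribution. The 6 group means were fitted over 24 arrays with limma 3.58.1 in R 4.3.3 (18 residual degrees of freedom) with empirical Bayes moderation. Calls required a Benjamini-Hochberg adjusted p below 0.05 across the 18417 genes, and all adjusted p-values are limma's. The fit was also run on simulated arrays in which few genes changed, so that run does not bear on a change of many genes. Precision is limited by the 4 arrays in each group.

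The genes and lists were chosen with earlier results of these data known. Values on every array are given for the 6 called genes with the largest change and no overlap between groups in the NOD1 line against the vector line without DOX, for up to 4 called genes against the majority there, and for the gene with the lowest p in each DOX comparison. For the NLRP4 line against the vector line the rule would have taken called genes, of which there were 0. Alternatives were the values as deposited, arrays centred on their medians, only the arrays compared, omission of the lowest 25% of genes by mean signal, the mean of a gene's probe sets, the array median as a covariate, and each array left out. Omission of the 4 dimmest arrays was added after the array medians were seen. Lengths of proteins were planned but not used here.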

Additional observations from a re-analysis of the deposited data

Results flagged for a closer look

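Among 13 genes with values given for every array, 78 groups of 4 arrays were examined, and in 3 of them 1 array stood apart from the other 3 by more than Dixon's 95% criterion allows. Chance flags about 1 in 20 groups, so 3 of 78 is no more than chance gives. CEP44 stood at 9.35 in NOD1_DOX replicate 1, against 8.57 to 8.61 in the other 3 arrays of that group. CEP135 stood at 9.94 in NOD1_noDOX replicate 3, against 9.35 to 9.43 in the others. CEP162 stood at 9.59 in vector_DOX replicate 1, against 9.37 to 9.38 in the others. The calls of these genes between the NOD1 and vector lines were kept in both DOX states when any 1 array was left out. None of the 51 genes was called for a difference between DOX effects.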

How the results depend on the processing

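The counts of centrosome genes called between the NOD1 line and another line moved little. Without DOX the 33 calls against the vector line became 28 with only the arrays compared, 29 without the 4 dimmest arrays and 33 or 34 in the other 5 alternatives, and 32 to 34 when 1 array was left out. With DOX the 33 calls ran from 31 to 33 over the 7 alternatives and from 30 to 33 when 1 array was left out. Against the NLRP4 line the calls ran from 28 to 34 without DOX and from 23 to 31 with DOX over all alternatives and left-out arrays, the lowest of which came with centred arrays. The count for DOX in the NOD1 line ran from 0 to 1, the 1 being CEP70 without NOD1_noDOX replicate 3, and the cause was not tested. Counts of 0 in the other DOX comparisons and between the NLRP4 and vector lines stayed at 0 in every alternative run. The median of the 51 genes against the NLRP4 line without DOX was -0.62 with centred arrays, against -0.47 in the values reported, and with DOX it was -0.275 with centred arrays, against -0.39. No median of the 51 genes between the NOD1 line and another line turned its sign. The share of lower calls among all genes called in the NOD1 line against the vector line was 47.8% without DOX, 63.5% with centred arrays and 42.8% as deposited. Against the NLRP4 line with DOX it was 47.4%, 40.3% and 70.7%, and without DOX 47.6%, 66.2% and 39.7%, with the median gene at 0.12 without DOX and -0.21 with DOX as deposited. No paired analysis was possible because the labels number the arrays consecutively and give the groups no shared replicate numbers.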

Other observations

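Genes of the cilium beyond the centrosome were also measured. The products of intraflagellar transport genes carry cargo along the cilium. Of 30 such genes, 8 (26.7%) were lower and 2 (6.67%) higher in the NOD1 line than in the vector line without DOX. The shares over all genes were 11.9% and 13%, and the median of the 30 was -0.23. IFT74 (-1.47, SE 0.184), the dynein heavy chain gene DYNC2H1 (-1.25, SE 0.140), IFT80 (-1.18, SE 0.152) and WDR35 (-1.01, SE 0.193) had the largest changes. Of 29 BBSome and transition zone genes 8 (27.6%) were lower and 4 (13.8%) higher, against the same shares of all genes. Their median was -0.05. The transition zone genes CC2D2A (-1.37, SE 0.130) and AHI1 (-0.94, SE 0.136) and the GTPase regulator gene RPGR (-0.93, SE 0.133) were lower, and TMEM216 was higher (0.74, SE 0.205).

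Some centrosome genes share their promoter window with a gene on the opposite strand, and the neighbours did not always move alike. SASS6 (-1.11) and TRMT13 (-0.73, SE 0.138) were both lower in the NOD1 line without DOX, as were CEP290 (-1.10) and TMTC3 (-1.10, SE 0.200), and CEP57 (-0.57) and FAM76B (-0.66, SE 0.140). CNTROB (0.33) and TRAPPC1 (0.74, SE 0.222) were both higher. CEP44 (-1.71) was lower while its neighbour FBXO8 did not pass (-0.31, SE 0.182), and the same held for OFD1 with TRAPPC2 (-0.03, SE 0.223), CEP57L1 (-1.04) with SESN1 (0.21, SE 0.117) and CEP95 (-0.54) with DDX5 (0.11, SE 0.059).

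Promoter base composition was set beside the calls. The median G+C content of the 300-base windows was 60.3% for the 27 centrosome genes called lower, 65.8% for the 14 not called and 63.0% over all genes. Over all genes called lower it was also 63.0%. In the lowest 25% of all promoters by G+C content 6 of 8 centrosome genes were lower, against 11.2% of all genes there, and in the highest 25% 6 of 11 were lower, against 11.9% of all genes there.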
